A study of Mus musculus with 15 samples.

Results

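Hedgehog acyltransferase (Hhat) and 6 core genes of the Hedgehog pathway, Ptch1, Smo, Sufu, Gli1, Gli2 and Gli3, were followed across an Omni-ATAC-seq data set of mouse embryonic fibroblasts (MEFs). Omni-ATAC-seq measures chromatin accessibility through a transposase that inserts sequencing adapters into open DNA. A consensus peak was taken as a member where its centre lay inside, or within 100 kb of, the interval of one of these 7 genes and no other protein-coding gene was nearer. This gave 250 of 206367 peaks: 48 at Hhat, 21 at Ptch1, 8 at Smo, 30 at Sufu, 5 at Gli1, 64 at Gli2 and 74 at Gli3. The link from a peak to a gene is by distance only. Hhat was chosen by the counts of 1 of its peaks, which was low in late Fra2 cells against late controls, so every value from the late Fra2 comparison is given as a description with no test.

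The 15 libraries form 5 groups of 3. All cells were MEFs whose genotype label reads C57/B16 background. In 4 groups (12 libraries) the cells carried a lentiviral CRISPRa-VPR-mCherry construct, in which a Cas9 that does not cut brings the VPR activator to a promoter, and were sorted as mCherry+/THY1+. They had received either guides against Fosl2, which encodes Fra2, a subunit of the AP-1 transcription factor, or scrambled guides, and were collected early or late after infection; most sample labels give days 3 and 10, the series design gives days 4 and 11, and early control 3 carries day 4. The groups are called early control, early Fra2, late control and late Fra2. The remaining group, Ezh2 inhibitor, was MEFs treated with 4 µM GSK343, which inhibits the H3K27 methyltransferase Ezh2, for 3 days and then kept for a washout day. Whether these cells were transduced or sorted is not stated. Their titles end in S27 to S29 and those of the other 12 libraries in S1 to S12, and any difference that goes with this numbering cannot be told apart from the treatment. No label says that the replicates of a group were separate cultures; each p-value below rests on the spread within groups, pooled over all 5, and this spread may be technical.

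Hedgehog ligands are lipid-modified proteins: Hhat, an enzyme of the MBOAT family in the endoplasmic reticulum, attaches palmitate to their amino terminus, and ligands without it signal poorly. A ligand binds Patched1 (Ptch1), which otherwise holds Smoothened (Smo) inactive at the primary cilium. Active Smo releases the Gli transcription factors from Sufu, and Gli1 and Ptch1 are themselves transcribed in response. Embryonic fibroblasts are ciliated and are a standard cell in which the response to Hedgehog ligand is studied.

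Libraries held 6.75 to 25.3 M (mega) counts in peaks, and early control 3 was the shallowest. Its log2 CPM correlated with the other early controls at r = 0.783 and 0.789, against 0.896 to 0.947 for all other pairs within a group. Levels below are CPM, the counts of a peak per 1000000 counts of its library after TMM scaling, and 3 reads corresponded to 0.117 to 0.42 CPM depending on the library. All 250 member peaks passed the filter on low counts; their median level was 3.54 CPM, beside 3.27 CPM over all 206349 tested peaks. Of 10 fibroblast marker genes 9 had a peak within 1 kb of a gene end (Lum had none), and these summed to 70.3 to 109 CPM per library. The epithelial (3 of 5 with such a peak), endothelial (3 of 5), macrophage (3 of 5), neuronal (4 of 5) and chondrocyte (5 of 5) lists summed to 8.31 to 13.4, 11.6 to 16.4, 24.9 to 34.4, 21.4 to 33.0 and 31.1 to 43.1 CPM, with no gene-end peak at Krt8, Krt18, Pecam1, Emcn, Ptprc, Adgre1 or Rbfox3. The sums run over lists of unlike length. The median level per marker was 10.6 CPM for fibroblast and 9.52 CPM for macrophage markers. It was 3.48, 4.6, 5.2 and 5.86 CPM for epithelial, endothelial, neuronal and chondrocyte markers. An open gene end is not a measure of expression, and a part of other cells in the results was not tested.

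The start sites of 6 of the 7 genes were taken from RefSeq for GRCm38.p6, the assembly that is also called mm10. The stretches of 250 bases before the start of Hhat, Sufu and Gli2 are shown because each is overlapped by a peak that is compared below with peaks farther away. CG dinucleotides are in capitals, and each sequence runs 5′ to 3′ on the gene's own strand. They come from chr1:192771220-192771469 (Hhat, minus strand), chr19:46396646-46396895 (Sufu, plus strand) and chr1:119053620-119053869 (Gli2, minus strand).
Hhat: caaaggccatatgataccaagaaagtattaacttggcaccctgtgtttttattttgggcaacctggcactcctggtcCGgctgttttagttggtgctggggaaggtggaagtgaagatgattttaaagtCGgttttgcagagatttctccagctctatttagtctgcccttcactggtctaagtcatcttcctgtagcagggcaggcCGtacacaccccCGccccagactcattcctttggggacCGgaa
Sufu: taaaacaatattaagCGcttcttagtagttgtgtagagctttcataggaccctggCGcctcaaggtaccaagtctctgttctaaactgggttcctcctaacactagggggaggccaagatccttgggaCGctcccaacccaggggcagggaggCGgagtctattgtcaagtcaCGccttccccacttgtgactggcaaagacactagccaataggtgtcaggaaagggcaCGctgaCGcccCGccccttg
Gli2: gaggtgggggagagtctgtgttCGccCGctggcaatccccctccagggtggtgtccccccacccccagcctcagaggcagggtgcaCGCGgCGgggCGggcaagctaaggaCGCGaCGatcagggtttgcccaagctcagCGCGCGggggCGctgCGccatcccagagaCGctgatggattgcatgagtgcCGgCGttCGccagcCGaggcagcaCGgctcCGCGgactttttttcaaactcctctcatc
The Hhat stretch held 5 CG dinucleotides at 49.2% G and C, near the medians of 6 and 52.4% over 32851 RefSeq promoters of the same length. Sufu held 8 at 54.0% and Gli2 22 at 67.2%. Ptch1 held 41, Gli3 34 and Smo 15. The Gli-binding motif GACCACCCA and the AP-1 motif TGANTCA, searched on both strands, were in none of the 6 stretches; they occur in 0.225% and 6.75% of all these promoters.

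The Hhat gene (chr1:192512825-192771219) had 34 peaks with their centre inside it and 14 upstream of its start. Its accessibility changed little at the promoter and most at a distance. The peak over the start site, chr1:192770840-192771341, read 7.57, 7.47 and 7.42 CPM in the early controls and 8.73, 8.23 and 6.27 CPM in early Fra2 cells. It read 7.08, 7.99 and 6.64 CPM with the Ezh2 inhibitor, 5.6, 8.45 and 8.53 CPM in late controls and 8.35, 8.21 and 7.74 CPM in late Fra2 cells. Late Fra2 libraries were all slightly above the early controls, and every other pair of groups overlapped. The means of the 5 groups lay between 7.24 and 8.1 CPM. The log2 fold change was 0.06 ± 0.17 (SE) for early Fra2 against early control (edgeR quasi-likelihood test, adjusted p = 0.853) and -0.05 ± 0.16 for the inhibitor (edgeR adjusted p = 0.92).

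The peak for which Hhat was picked out lies 27.4 kb upstream of the start, at chr1:192798408-192798909, between Hhat and Sertad4, which begins 45.8 kb beyond it. It read 4.11, 3.56 and 4.33 CPM in the late controls and 0.642, 1.17 and 0.86 CPM in the late Fra2 libraries. This is the difference that chose the gene: all 3 late Fra2 libraries were below all late controls, at a log2 fold change of -2.18 ± 0.26. The next lowest of the 48 Hhat peaks in that comparison was at -0.94 and the one after it at -0.72.

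The early libraries did not enter that choice. Here the same peak read 8.75, 7.69 and 5.6 CPM in early controls and 3.94, 2.24 and 3.1 CPM in early Fra2 cells, so the highest Fra2 library was below the lowest control. The mean fell from 7.35 ± 1.6 to 3.09 ± 0.851 CPM (SD, n = 3 each), a log2 fold change of -1.25 ± 0.21 (edgeR adjusted p = 1.66e-05). It passed the threshold under every alternative run for this comparison, with -1.49 to -1.09 when 1 library was left out.

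Cells given the Ezh2 inhibitor were also low at this peak, at 4.57, 3.72 and 3.42 CPM, all below the lowest early control. The log2 fold change was -0.95 ± 0.20 (edgeR adjusted p = 0.0109). This call depended on the libraries in the fit: the adjusted p was 0.0809 (edgeR, log2 fold change -0.97) with only the 6 libraries compared, and 0.0523 to 0.0962 without early control 1 or 2 or inhibitor library 2 or 3, at -0.94 to -0.8. Without early control 3 the change was -1.08 and the call held. Early Fra2 and inhibitor cells overlapped and differed by -0.30 ± 0.21 (edgeR adjusted p = 0.378), with -0.54 to -0.13 when 1 library was left out. The early Fra2 and inhibitor comparisons use the same 3 early controls.

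Late controls, at a mean of 4.0 ± 0.395 CPM, were likewise below the early controls at the upstream peak, with a log2 fold change of -0.92 ± 0.21, given as a description because late controls entered the choice of the gene. The 5 groups therefore ran from 7.35 CPM in early controls through 4.0 in late controls, 3.9 with the inhibitor and 3.09 in early Fra2 cells to 0.892 in late Fra2 cells. The 3 middle groups overlapped in their libraries, while early controls lay above and late Fra2 below all other libraries. The late minus early difference of the Fra2 effects was -0.93 ± 0.34 on the log2 scale. In the authors' own peak lists, made library by library, the position was listed in 2 of 3 early controls, 2 of 3 early Fra2, 3 of 3 inhibitor, 3 of 3 late control and 0 of 3 late Fra2 libraries. Where it was listed, the authors' fold over background ran from 7.51 to 9.68 in early controls and 2.39 to 6.06 in early Fra2 cells. It ran from 4.17 to 7.07 with the inhibitor and from 3.0 to 4.76 in late controls. Early control 3, the shallowest library, did not list the position and is not in the first range. The fold also varied between libraries at the start-site peak, from 4.06 to 8.57 in early controls and 5.97 to 12.99 in early Fra2 cells.

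**Figure D1:**
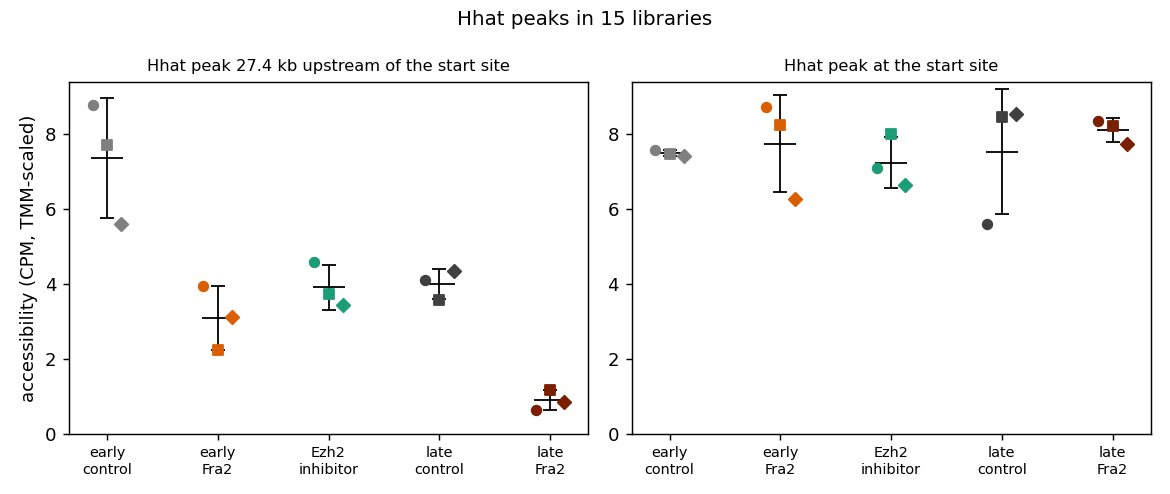
Accessibility in CPM at the Hhat peak 27.4 kb upstream of the start (left) and at the peak over the start site (right), with 1 point per library (circle, square and diamond for replicates 1 to 3) and bars for the group mean ± SD. At the upstream peak early controls average 7.35 and late Fra2 cells 0.892 CPM, while at the start site the 5 group means lie between 7.24 and 8.1 CPM.

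Over all 48 Hhat peaks, 5 rose and 2 fell in early Fra2 cells, the upstream peak being 1 of those 2. That is 14.6% called, beside 15% of all tested peaks, of which 10.1% were called higher and 4.92% lower (called means an edgeR adjusted p under 0.05 over all of them). The largest rise was inside the gene, 10.7 kb from the start, at chr1:192760306-192760807. That peak, chosen for naming after its values were seen, read 2.47, 3.12 and 2.38 CPM in early controls and 6.17, 7.11 and 5.62 CPM in early Fra2 cells. It rose by 1.23 ± 0.21 on the log2 scale (edgeR adjusted p = 1.91e-05), and its inhibitor libraries, at 3.43, 3.04 and 2.99 CPM, overlapped the early controls. The other risers at Hhat lay 34.5, 70.7 and 102.2 kb inside the gene and 10.3 kb upstream, at 0.63 to 0.92. The other peak that fell lay 15.8 kb upstream, at -0.70 ± 0.24 (edgeR adjusted p = 0.0483).

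Summed over the 48 peaks, Hhat accessibility was 196 ± 11.6 CPM in early controls and 215 ± 5.11 CPM in early Fra2 cells (SD, n = 3 each). The upstream peak went down while the locus as a whole read no lower. Against the inhibitor, early Fra2 cells were higher at 5 Hhat peaks and lower at 1, 12.5% of 48 beside 14.2% of all tested peaks. The largest such difference was at a weak peak 29.5 kb into the gene, chr1:192741477-192741978. Its libraries read 0.0949, 1.84 and 2.88 CPM in early Fra2 cells and 0.044, 0.635 and 0.272 CPM with the inhibitor, so they overlapped, and 2 of them were under 3 reads. The log2 difference of 2.25 ± 0.61 (edgeR adjusted p = 0.00803) was not called without inhibitor library 1 (1.76, edgeR adjusted p = 0.0726), without early Fra2 library 3 (1.41, edgeR adjusted p = 0.204) or by DESeq2 (2.32, adjusted p = 0.0899).

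**Figure D2:**
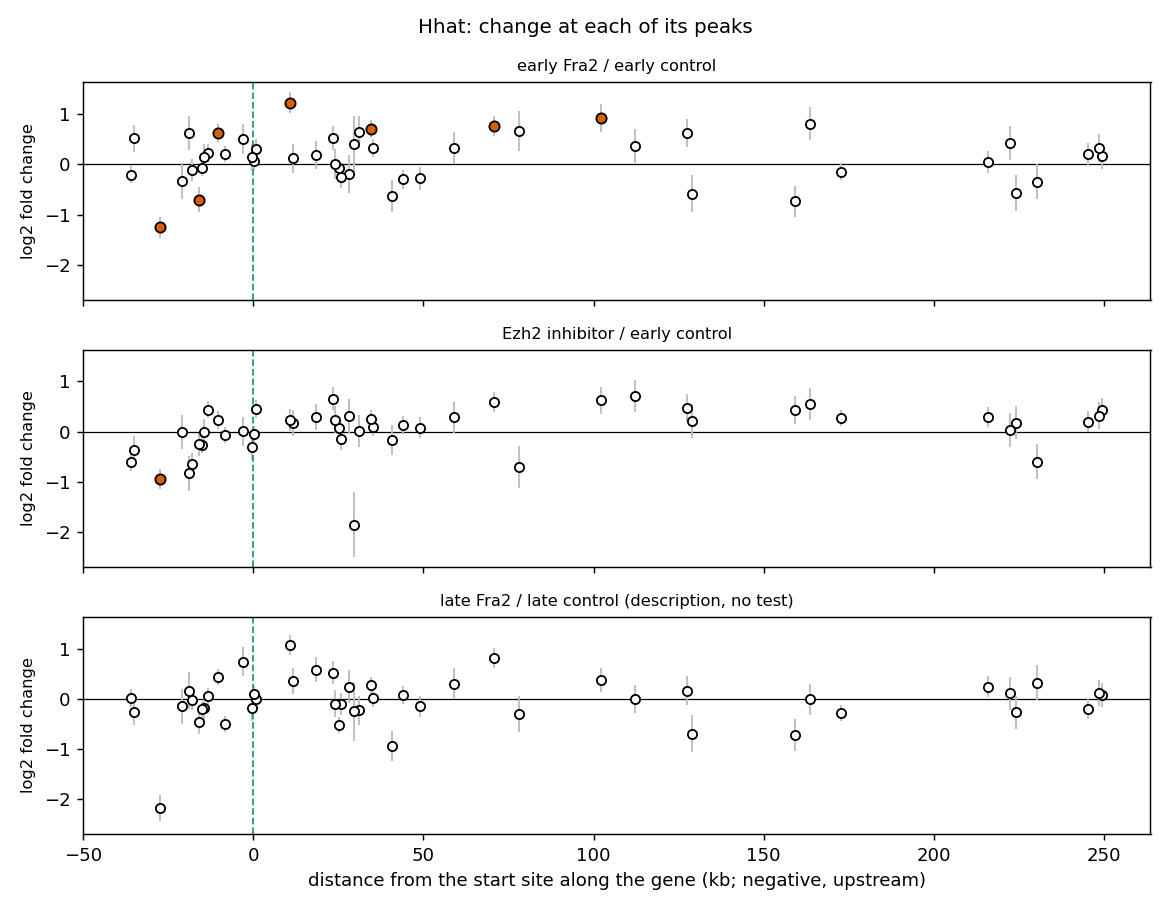
Log2 fold change (± SE) at each of the 48 Hhat peaks against distance from the start site in kb, for early Fra2 (top) and Ezh2 inhibitor (middle) against early control and late Fra2 against late control (bottom). Filled points passed the edgeR threshold, the late panel carries no test, and the peak 27.4 kb upstream is at -1.25, -0.95 and -2.18.

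The genes around Hhat were counted to see whether the loss reached beyond it. The 9 genes counted, all within 500 kb, were Traf5, Rcor3, Kcnh1, Sertad4, Syt14, Utp25, A130010J15Rik, Traf3ip3 and Hsd11b1. In early Fra2 cells 6 of their 98 peaks were called higher and 2 lower, beside 10.1% and 4.92% of all tested peaks. The 6 were among the 30 peaks of Kcnh1, a potassium channel gene, where 0 fell. Sertad4, the nearest gene on the far side of the upstream peak, had 1 of 17 peaks lower and Utp25 1 of 9 lower. With the inhibitor edgeR and DESeq2 called 0 of the 98 peaks of these 9 genes, where edgeR called 0.893% of all tested peaks. Of the 98, 12 had an unadjusted edgeR p under 0.05, 6 of them at Sertad4, beside 30246 of all 206349 tested peaks.

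Over all 7 genes, 23 peaks rose and 13 fell in early Fra2 cells. That is 14.4% of 250, beside the 15% of all tested peaks, and the median log2 fold change was -0.09 against -0.03. Scaling moved the split into rises and losses: when gene-end peaks alone set the TMM factors, the median over all peaks was 0.18 and the members gave 51 rises and 5 losses, beside 39571 and 2837 among all peaks. Without early Fra2 library 1 the members gave 13 rises and 10 losses, and with only the 6 libraries compared 13 and 6. All tested peaks gave 14146 and 5574, and 11812 and 3192, in the same fits. The Ezh2 inhibitor changed few member peaks: 1 rose and 3 fell, 1.6% of 250 beside 0.893% of all tested peaks (0.552% higher and 0.341% lower). These 4 were the Hhat upstream peak, 1 at Ptch1 and 2 adjoining at Gli2, and none was called with only the 6 libraries compared, where 0 of 250 passed. Leaving out 1 library gave between 0 (without early control 2 or inhibitor library 2 or 3) and 14 (without early control 3). Over all tested peaks the inhibitor count of 1843 became 11 with only the 6 libraries compared. With 1 library left out it ranged from 220 (without inhibitor library 3) to 7565 (without early control 3).

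**Figure D3:**
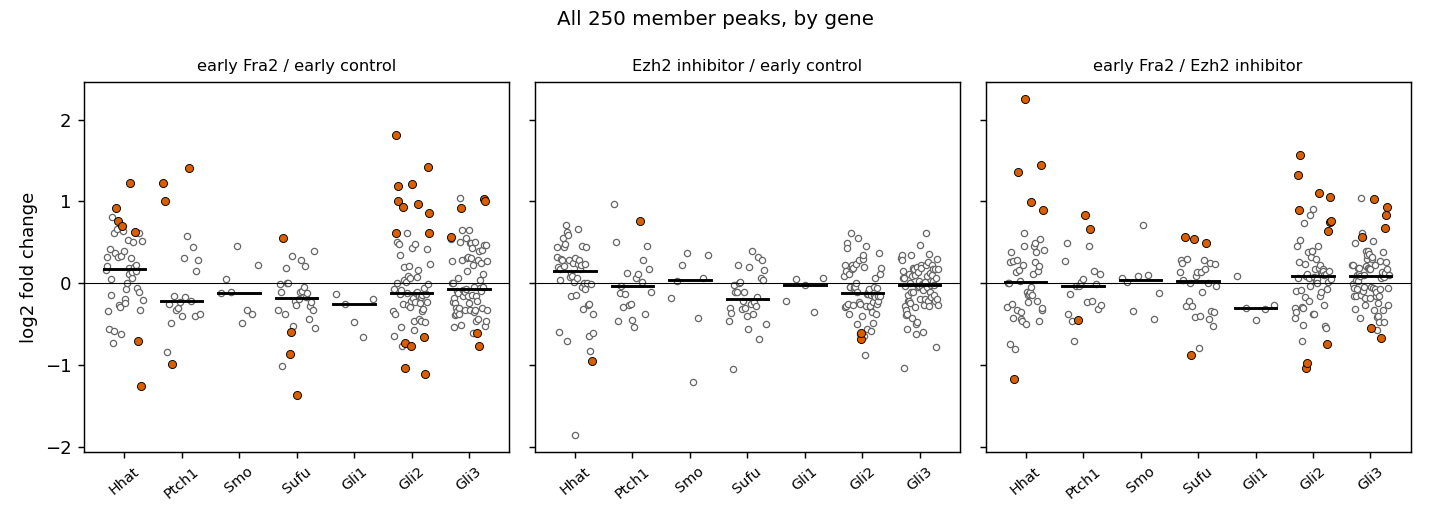
Log2 fold change at all 250 member peaks by gene, in order of position within each gene, for early Fra2 and Ezh2 inhibitor against early control and for early Fra2 against Ezh2 inhibitor; filled points passed the edgeR threshold and lines are medians. The early Fra2 comparison holds 36 called peaks and the inhibitor comparison 4.

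Ptch1 (chr13:63508328-63573460), the ligand receptor and a target of the pathway, had 3 peaks that rose and 1 that fell among 21 in early Fra2 cells. That is 19.0%, beside 15% of all tested peaks. The peak that changed most lies 41.3 kb outside the gene, on the side of its start, at chr13:63614532-63615033. It read 5.26, 2.47 and 3.78 CPM in early controls and 11.5, 10.4 and 9.44 CPM in early Fra2 cells. Inhibitor libraries read 6.2, 6.9 and 6.88 CPM. All 3 groups were separate, with inhibitor cells between the others. The rise in early Fra2 cells was 1.41 ± 0.19 on the log2 scale (edgeR adjusted p = 2e-07) and held under every alternative run.

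With the inhibitor the same Ptch1 peak rose by 0.76 ± 0.19 (edgeR adjusted p = 0.0387), which was no longer called with only the 6 libraries compared (0.75, edgeR adjusted p = 0.164), without any of the 3 inhibitor libraries (0.73 to 0.81) or without early control 2 (0.49, edgeR adjusted p = 0.305). Early Fra2 cells were higher than inhibitor cells by 0.66 ± 0.17 (edgeR adjusted p = 0.00421). Late controls, at 4.63, 7.42 and 6.82 CPM, overlapped early controls and were higher by 0.69 ± 0.20 (edgeR adjusted p = 0.0417), not called without early control 2 (0.42, edgeR adjusted p = 0.325), late control 2 (0.55) or late control 3 (0.63), with only the 6 libraries compared (0.7) or by DESeq2 (adjusted p = 0.0616). Late Fra2 cells read 11.7, 9.55 and 10.6 CPM, above all late controls. This was the member peak with the smallest adjusted p in the early Fra2 comparison.

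The other 2 Ptch1 rises were weak peaks, 1.1 kb past the gene's far end (from 1.66 to 3.5 CPM, 1.23) and inside it (from 1.95 to 3.82 CPM, 1.0). The loss was inside the gene, from 2.81 to 1.37 CPM (-0.99). The peak at the outer edge of the Ptch1 interval, chr13:63573405-63573906, read 2.15, 2.9 and 2.24 CPM in early controls, 2.37, 3.44 and 3.39 CPM in early Fra2 cells and 1.93, 1.45 and 1.67 CPM with the inhibitor. Its early Fra2 libraries were all above the inhibitor libraries, by 0.84 ± 0.28 (edgeR adjusted p = 0.0305), which was not called without inhibitor library 2 or 3 or early Fra2 library 2 or 3 (0.75 to 0.83). Against early control it was at 0.31 ± 0.29 (edgeR adjusted p = 0.481). A peak 83.9 kb outside Ptch1, chr13:63657129-63657630, rose between early and late controls, from 2.95 ± 0.806 to 5.12 ± 0.366 CPM (0.71 ± 0.21, edgeR adjusted p = 0.0425). That call was lost without early control 2 or 3 or any of the late controls, at 0.58 to 0.75, with only the 6 libraries compared (0.73) and by DESeq2 (0.72, adjusted p = 0.0671).

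Smo (chr6:29735497-29761366), the transducer that Ptch1 restrains, had no called peak in any tested comparison in the fit of all 15 libraries. Among its 8 peaks edgeR called 0 in early Fra2 cells, with 0 at an unadjusted p under 0.05, and DESeq2 called 0. With the inhibitor edgeR and DESeq2 also called 0, with 1 at an unadjusted p under 0.05. Over all 206349 tested peaks, 61722 and 30246 had an unadjusted edgeR p under 0.05 in the same comparisons. Without early control 1 edgeR called 1 Smo peak lower in each of these comparisons, and after cyclic loess 1 lower with the inhibitor. The peak over the Smo start, chr6:29735231-29735732, read 18.9, 14.9 and 15.1 CPM in early controls, 16.1, 18 and 11.2 CPM in early Fra2 cells and 13.1, 14.4 and 16.0 CPM with the inhibitor. The groups overlapped, at -0.12 ± 0.16 and -0.18 ± 0.16 against early control. Summed over its peaks, Smo read 48.7 to 55.8 CPM across the 5 group means.

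Sufu (chr19:46396896-46488804) encodes the protein that holds Gli factors in check. The peak over its start, chr19:46396701-46397202, which covers most of the stretch printed above, was the highest of the gene-end peaks followed here. It read 34.8, 28.7 and 27.4 CPM in early controls, 25.8, 26.2 and 21.3 CPM in early Fra2 cells and 24.1, 21.0 and 21.4 CPM with the inhibitor. Both treated groups were below all early controls, at -0.32 ± 0.15 (edgeR adjusted p = 0.151) and -0.46 ± 0.15 (edgeR adjusted p = 0.119), and neither passed the threshold. Late Fra2 cells, at 25.4, 25.0 and 22.2 CPM, were below late controls, at 28.8, 35.6 and 34.7 CPM.

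Inside Sufu 3 peaks fell and 1 rose in early Fra2 cells, of 30. That is 13.3%, beside 15% of all tested peaks. The largest loss was 61.3 kb from the start, at chr19:46457923-46458424. It read 1.88, 4.06 and 4.62 CPM in early controls and 1.52, 0.879 and 1.44 CPM in early Fra2 cells, so the groups were separate although early control 1 lay close to the Fra2 libraries. The log2 fold change was -1.36 ± 0.33 (edgeR adjusted p = 0.00293). A second loss, 49.0 kb from the start at chr19:46445663-46446164, went from 3.17, 4.21 and 5.32 CPM to 2.42, 1.6 and 2.59 CPM. The change there was -0.86 ± 0.24 (edgeR adjusted p = 0.0113), not called without early Fra2 library 2 (-0.71, edgeR adjusted p = 0.0674) or with gene-end scaling (-0.66, edgeR adjusted p = 0.0624). The inhibitor libraries read 4.04, 3.72 and 4.58 CPM at this second peak, within the range of the early controls, and early Fra2 cells were lower than them by -0.88 ± 0.23 (edgeR adjusted p = 0.00514). With the inhibitor edgeR called 0 of the 30 Sufu peaks, with 4 at an unadjusted p under 0.05, and DESeq2 called 1. Among all 206349 tested peaks, 30246 had an unadjusted edgeR p under 0.05 with the inhibitor.

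**Figure D4:**
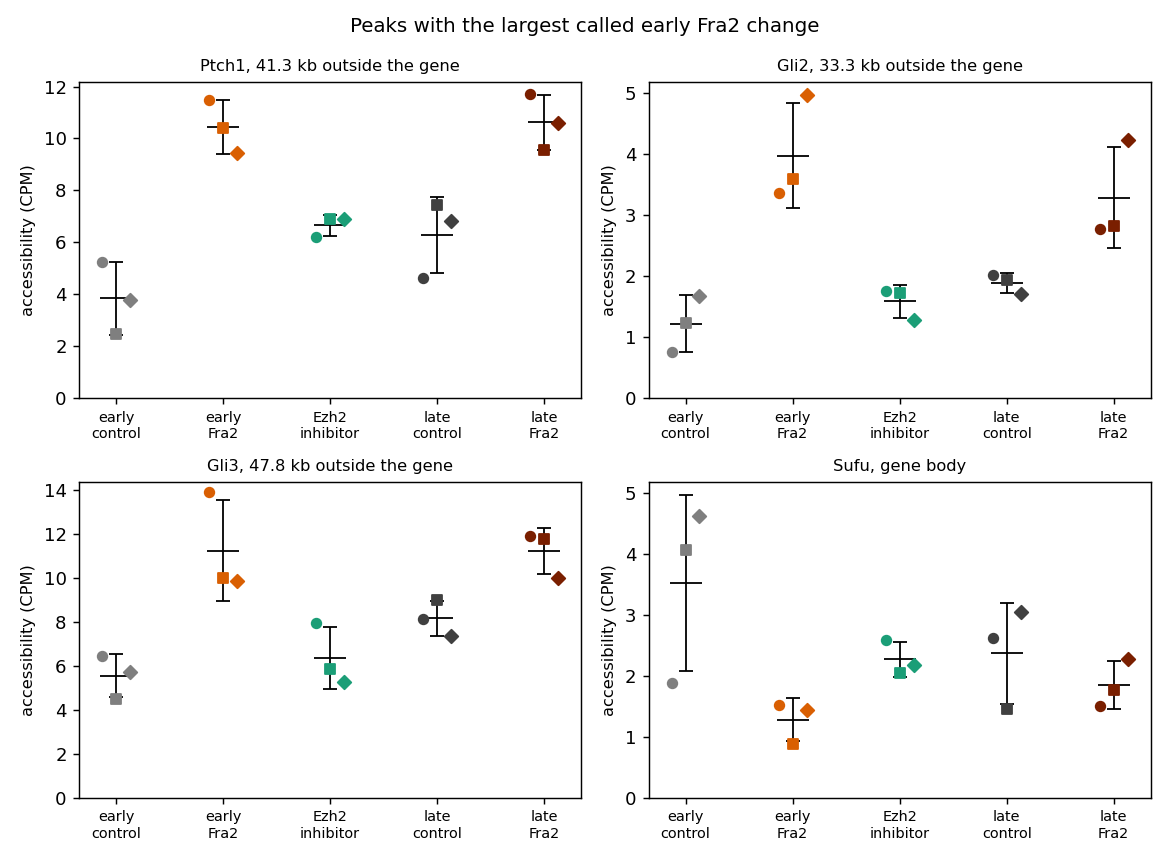
Accessibility in CPM at the peak of Ptch1, Gli2, Gli3 and Sufu with the largest called change in early Fra2 cells, 1 point per library (circle, square and diamond for replicates 1 to 3), with the group mean ± SD. In early Fra2 cells the Ptch1, Gli2 and Gli3 peaks average 10.4, 3.98 and 11.3 CPM and the Sufu peak 1.28 CPM.

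Gli1 (chr10:127329882-127341579), an activator whose transcription reports pathway activity, had 5 peaks and no called change in the fit of all 15 libraries. In early Fra2 cells edgeR called 0, with 2 at an unadjusted p under 0.05 (-0.47 and -0.66), and DESeq2 called 0. Over all 206349 tested peaks, 61722 had an unadjusted edgeR p under 0.05 in that comparison. After cyclic loess 1 Gli1 peak was called lower, and 2 were without early control 3. The 5 log2 fold changes lay between -0.66 and -0.13. Its highest gene-end peak, chr10:127342220-127342721, lies 0.9 kb outside the interval, on the side of higher coordinates. No start site was at hand for Gli1, so the peak is not placed before or after the gene. It read 6.33, 6.53 and 4.9 CPM in early controls, 5.93, 5.12 and 4.68 CPM in early Fra2 cells and 6.07, 6.22 and 6.84 CPM with the inhibitor. These groups overlapped, at -0.19 ± 0.18 and 0.07 ± 0.17 against early control. Summed over its 5 peaks, Gli1 read 38.6, 38.5 and 27.4 CPM in early controls and 31.2, 28.5 and 26.7 CPM in early Fra2 cells, which overlapped through early control 3.

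Gli2 (chr1:118834061-119054405), the main activator among the Gli factors, had 10 peaks that rose and 5 that fell in early Fra2 cells. That is 23.4% of 64, beside 15% of all tested peaks (10.1% higher and 4.92% lower). The 10 and 5 became 4 and 4 without early Fra2 library 1, 7 and 3 without early control 2, and 4 and 3 with only the 6 libraries compared. Over all tested peaks, 20791 and 10144 became 14146 and 5574, 14720 and 6606, and 11812 and 3192 in the same fits. The largest rise was 33.3 kb past the gene's far end, at chr1:118800522-118801023. It read 0.751, 1.23 and 1.68 CPM in early controls, 3.37, 3.6 and 4.97 CPM in early Fra2 cells and 1.76, 1.72 and 1.28 CPM with the inhibitor. Early Fra2 libraries were above all others of these groups, by 1.81 ± 0.31 over early controls (edgeR adjusted p = 2.41e-05) and 1.32 ± 0.27 over inhibitor cells (edgeR adjusted p = 0.000373).

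Among the other Gli2 rises were a peak 72.7 kb outside the gene on the side of its start (from 1.3 to 3.63 CPM, 1.42) and 1 inside the gene at chr1:118869982-118870483. The latter read 0.537, 1.31 and 1.96 CPM in early controls, 2.94, 2.16 and 2.67 CPM in early Fra2 cells and 0.615, 0.953 and 1.05 CPM with the inhibitor. Early Fra2 libraries were above all others of these groups. The rise was 1.57 ± 0.36 over the inhibitor (edgeR adjusted p = 0.00166) and 1.19 ± 0.39 over early controls (edgeR adjusted p = 0.0279). The second of these calls was lost without early control 1 (0.73, edgeR adjusted p = 0.236), without early control 2 or early Fra2 library 1 or 3 (1.08 to 1.32), and with only the 6 libraries compared (1.16). The largest Gli2 losses were 39.4 kb outside the gene (from 4.52 to 2.05 CPM, -1.11) and inside it, 118.1 kb from the start (from 5.85 to 2.91 CPM, -1.04). At that inner peak, whose inhibitor mean was 5.91 CPM, late Fra2 cells averaged 1.96 CPM against 5.85 CPM in late controls, a log2 fold change of -1.58.

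The peak over the Gli2 start, chr1:119053418-119053919, covers the whole stretch printed above. It read 15.2, 14.6 and 14.3 CPM in early controls, 13.5, 13.1 and 12.7 CPM in early Fra2 cells and 11.7, 11.5 and 11.6 CPM with the inhibitor. The 3 groups did not overlap, yet the differences were small, at -0.17 ± 0.15 (edgeR adjusted p = 0.471) and -0.35 ± 0.15 (edgeR adjusted p = 0.249). The 2 Gli2 peaks that fell with the inhibitor adjoin each other 71.6 and 71.1 kb into the gene and are not independent. The first, chr1:118981771-118982272, read 6.49, 7.47 and 6.16 CPM in early controls and 4.88, 3.9 and 3.85 CPM with the inhibitor, groups that did not overlap, at -0.68 ± 0.18 (edgeR adjusted p = 0.0437). That call was lost by DESeq2 (adjusted p = 0.0521), with gene-end scaling (-0.53), with only the 6 libraries compared (-0.7), and without any inhibitor library or early control 1 or 2 (-0.8 to -0.6). The second averaged 14.9 CPM in early controls and 9.71 CPM with the inhibitor (-0.61, edgeR adjusted p = 0.0447).

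In late cells the Gli2 locus was lower with Fra2 on the TMM scale of all peaks, given here as a description. The median log2 fold change over its 64 peaks was -0.29, beside -0.01 over all tested peaks. With TMM factors from gene-end peaks the median over all tested peaks was 0.23. The Gli2 and Sufu values are not given on that scale, and whether they stay lower there was not tested. On the TMM scale of all peaks, the summed Gli2 level was 321, 323 and 330 CPM in late controls and 270, 251 and 278 CPM in late Fra2 cells, which did not overlap. In early cells it was 323, 326 and 293 CPM in controls and 311, 321 and 305 CPM with Fra2, which overlapped. On the same scale Sufu also summed lower in late Fra2 cells, at 143 ± 5.22 against 175 ± 5.84 CPM (SD, n = 3 each).

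**Figure D5:**
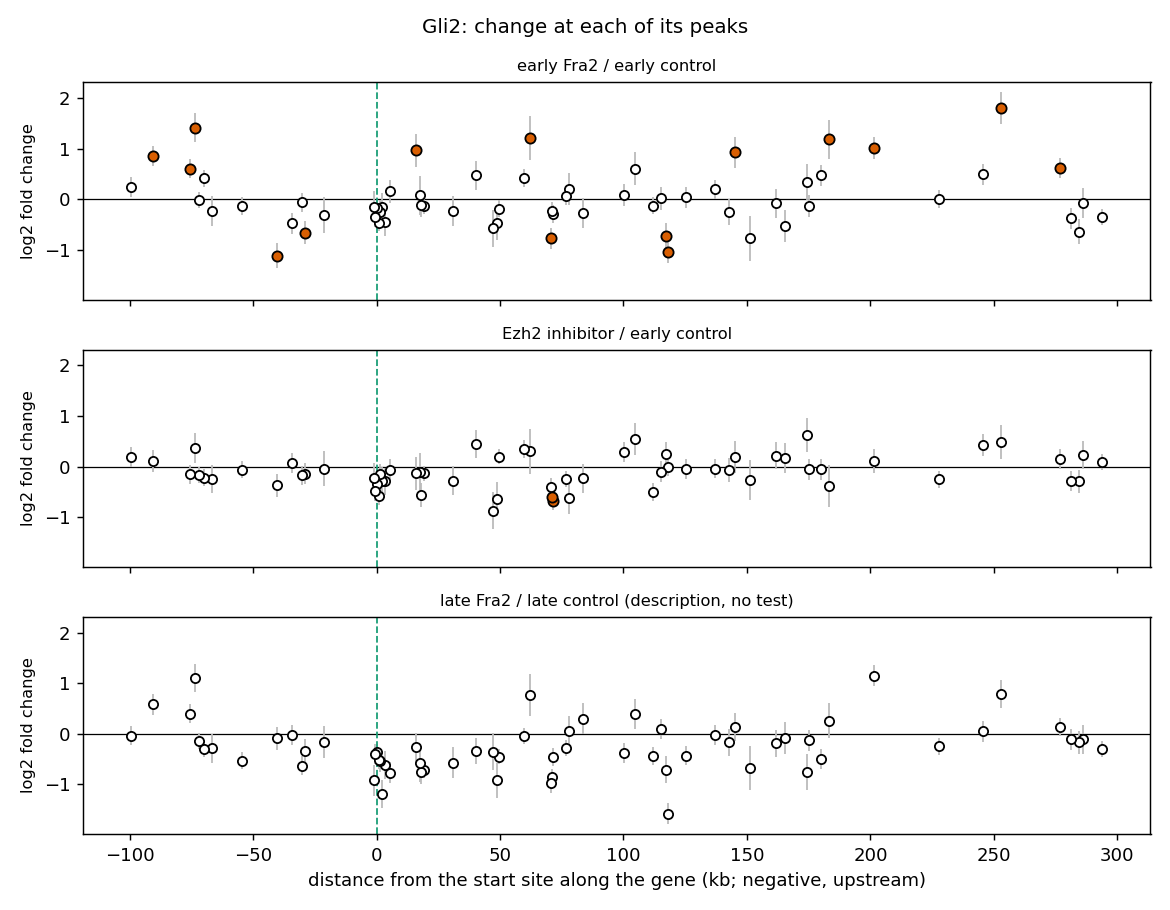
Log2 fold change (± SE) at each of the 64 Gli2 peaks against distance from the start site in kb, for early Fra2 (top) and Ezh2 inhibitor (middle) against early control and late Fra2 against late control (bottom, no test). Filled points passed the edgeR threshold: 15 in the top panel and 2 in the middle one.

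Gli3 (chr13:15463723-15730026), the main repressor of the family, had the most peaks, of which 4 rose and 2 fell in early Fra2 cells, 8.11% of 74 beside 15% of all tested peaks. The counts became 17 higher and 0 lower with gene-end scaling, and 5 higher and 6 lower without early control 3. All tested peaks gave 39571 and 2837, and 24349 and 15972, in the same fits. The largest rise was 47.8 kb past its end, at chr13:15777560-15778061. It read 6.44, 4.5 and 5.74 CPM in early controls, 13.9, 9.99 and 9.87 CPM in early Fra2 cells and 7.96, 5.86 and 5.28 CPM with the inhibitor. Early Fra2 libraries were above all others of these groups. The rise was 1.03 ± 0.18 over early controls (edgeR adjusted p = 2.79e-05) and 0.84 ± 0.16 over inhibitor cells (edgeR adjusted p = 0.000173). A neighbouring peak, 56.2 kb past the end, rose from 2.89 to 5.88 CPM (1.0), and 1 inside the gene, 34.8 kb from the start, from 6.62 to 12.6 CPM (0.92). With the inhibitor edgeR called 0 of 74, with 11 at an unadjusted p under 0.05, and DESeq2 called 1. Among all 206349 tested peaks, 30246 had an unadjusted edgeR p under 0.05 with the inhibitor.

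The gene-end peak of Gli3 with the highest level lies just before its start, at chr13:15462992-15463493. It read 17.2, 15.6 and 9.8 CPM in early controls, where early control 3 was below every early Fra2 library (12.8, 12.7 and 10.1 CPM) and every inhibitor library (11.3, 10.8 and 11.2 CPM). The log2 fold changes of -0.30 ± 0.17 and -0.39 ± 0.16 did not pass the edgeR threshold (adjusted p = 0.227 and 0.234). Inside the gene, chr13:15603892-15604393 separated early Fra2 cells (7.41, 7.43 and 5.76 CPM) from inhibitor cells (3.3, 3.54 and 3.26 CPM), and early controls lay at 4.67, 6.31 and 4.06 CPM. The difference of 1.03 ± 0.18 had an edgeR adjusted p of 3.08e-05, while neither group was called against early control.

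The comparison of early Fra2 with inhibitor cells needs no control library. Early Fra2 cells were higher at 23 member peaks and lower at 8, 12.4% of 250 beside 14.2% of all tested peaks (9.02% higher and 5.2% lower). By gene the higher and lower counts were 5 and 1 at Hhat, 2 and 1 at Ptch1, and 3 and 1 at Sufu. They were 8 and 3 at Gli2 and 5 and 2 at Gli3. At Smo and Gli1 edgeR and DESeq2 called 0, with 1 peak of each at an unadjusted edgeR p under 0.05. Over all 206349 tested peaks, 58240 had an unadjusted edgeR p under 0.05 in this comparison.

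Time alone, from early to late control, changed few peaks of the 6 genes other than Hhat: 4 rose and 2 fell, the latter both at Gli3, 2.97% of 202 beside 3.28% of all tested peaks (2.04% higher and 1.23% lower). Besides the 2 Ptch1 peaks above, a Gli3 peak at chr13:15587571-15588072 rose, from 3.97, 4.21 and 1.68 CPM to 5.68, 6.94 and 6.21 CPM, and the groups did not overlap. Its change of 0.83 ± 0.20 (edgeR adjusted p = 0.011) was 0.63 without early control 3, the lowest library, and then not called (edgeR adjusted p = 0.0509), nor without late control 2 (0.75, edgeR adjusted p = 0.0807) or with only the 6 libraries compared (0.85, edgeR adjusted p = 0.0804). A Gli2 peak 15.9 kb into the gene, chr1:119037514-119038015, rose from 1.23, 1.6 and 1.26 CPM to 3.44, 2.05 and 3.17 CPM (1.06 ± 0.32, edgeR adjusted p = 0.0466). Its call was lost in 5 of the 6 fits that left out 1 of these libraries, at 0.93 to 1.2, late control 2 being the exception, and with only the 6 libraries compared (1.07). The same Gli2 peak was at 2.75, 2.8 and 2.52 CPM in early Fra2 cells, above all early controls (0.97 ± 0.32, edgeR adjusted p = 0.0304), a call lost with the 6 libraries compared and without early control 1 or early Fra2 library 1 or 2 (0.88 to 0.95).

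Fra2 changes seen early were followed to the late libraries, which are separate from the early ones. Of the 29 peaks of the 6 genes called in early Fra2 cells, 27 (93.1%) had the same sign in late Fra2 cells against late controls. Over all tested peaks the share was 90.6% (28041 of 30935), so the members were near the background.

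The wider pathway was counted over 49 further genes listed by role, with 691 peaks. In early Fra2 cells 55 rose and 38 fell (13.5%, beside 15% of all tested peaks). With the inhibitor 3 rose and 5 fell (1.16%, beside 0.893% of all tested peaks). The 3 ligand genes Shh, Ihh and Dhh had 0 of 14 peaks called by edgeR or DESeq2 in early Fra2 cells. Of the 14, 3 had an unadjusted edgeR p under 0.05, beside 61722 of all 206349 tested peaks. Receptors, coreceptors and the decoy Hhip had 13 higher and 3 lower of 105, ligand processing and release genes 8 and 7 of 95, and genes for the breakdown of Gli proteins 10 and 8 of 121. Cytoplasmic regulators and kinases had 5 higher and 4 lower of 92, ciliary partners of Smo 1 and 1 of 42, cilium transport genes 1 and 5 of 32, and target genes 19 and 10 of 198. Over all tested peaks 10.1% were called higher and 4.92% lower. Among roles with a called peak, the called share ran from 4.76% at ciliary partners of Smo to 18.8% at cilium transport genes. These shares were not compared by a test.

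The largest early Fra2 change in that list was 2.7 kb outside Hhip, the decoy receptor that is itself a Hedgehog target. That peak rose from 1.58 ± 0.222 to 5.47 ± 1.07 CPM (SD, n = 3 each; 1.83 ± 0.26, edgeR adjusted p = 3.6e-07), with 2.73 ± 0.639 CPM in inhibitor cells. Peaks inside Ift88, a cilium transport gene, Stk36, a kinase-like regulator, and Fbxw11, part of a ubiquitin ligase for Gli proteins, followed at 1.58 ± 0.32, 1.48 ± 0.37 and 1.47 ± 0.17. At the Ift88 peak early controls read 1.68 ± 1.58 CPM (SD), a spread nearly as large as the mean, and early Fra2 cells 4.04 ± 0.125 CPM. With the inhibitor the Ift88 peak rose by 1.20 ± 0.32, a gene-end peak of the ligand gene Ihh fell from 3.91 ± 2.12 to 1.64 ± 0.466 CPM (-1.14 ± 0.29), and distant peaks of the target genes Mycn and Bmp4 rose by 0.91 ± 0.24 and 0.87 ± 0.20. Their edgeR adjusted p ran from 0.0221 at Bmp4 to 0.0463 at Ift88, and DESeq2 did not call the Ihh peak. With only the 6 libraries compared, edgeR called 11 of all tested peaks for the inhibitor.

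Between early Fra2 and inhibitor cells the largest differences of the list were at Igf1 (-1.38 ± 0.35), Ccnd1 (1.31 ± 0.30), Evc (1.29 ± 0.41) and Cntfr (1.23 ± 0.35). Between early and late controls they were at the coreceptor genes Cdon (-1.38), Lrp2 (1.25) and Boc (-1.09) and at the cyclin gene Ccnd2 (-1.11). Lrp2, a large endocytic receptor that binds Hedgehog ligand, also had 9 of 25 peaks higher and 0 lower in early Fra2 cells. The 10 other acyltransferase genes of the MBOAT family had 10 peaks higher and 3 lower of 91 in early Fra2 cells, 14.3% beside 15% of all tested peaks. With the inhibitor 1 of the 91 rose, 1.1% beside 0.893% of all tested peaks. It lies inside Mboat2 and went from 3.1 ± 0.529 to 5.57 ± 0.45 CPM (0.80 ± 0.19, edgeR adjusted p = 0.0252). The same peak also rose in early Fra2 cells, to 5.91 ± 0.923 CPM.

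The 6 genes listed next had the peak most like the Hhat upstream peak over the 15 libraries, by Pearson correlation of log2 CPM. They were Fchsd2 (r = 0.975), Ptprs (0.948), Habp2 (0.948), Spink5 (0.946), Pofut2 (0.945) and Smco4 (0.941). The points share 5 groups and the same libraries, the peaks were searched over all genes, and no test goes with these values. The Fchsd2 peak averaged 4.99, 2.86, 3.79, 3.26 and 1.69 CPM in early control, early Fra2, inhibitor, late control and late Fra2 cells. Among Hhat's own other 47 peaks the correlation with the upstream peak ran from -0.799 to 0.658.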

How the data were processed

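The deposited table gives raw read counts per consensus peak for 15 libraries, made by the authors; 206366 of its 206367 peaks are 502 bp wide, and 0 sample columns were left unused. Peaks were called with MACS2 and placed on mm10, per the submitters' processing notes; not given in the sources used here are tool versions, the aligner, how duplicates were handled, the read shift and the counter. The deposited peak lists, 1 per library, hold a fold enrichment, a ratio to the local background, and −log10 p and q values; only the fold is printed. The positions of all 206367 peaks matched a second deposited list, whose score column is not described and was not used.

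Peaks were assigned to the nearest RefSeq protein-coding gene of GRCm38.p6 within 100 kb (182983 peaks). Counts of all 15 libraries entered 1 edgeR 4.0.16 quasi-likelihood fit (R 4.3.3) with a mean per group, filterByExpr and TMM, and p-values were adjusted by Benjamini-Hochberg over all 206349 tested peaks, called under 0.05. DESeq2 1.42.0, limma 3.58.1 (cyclic loess), other scalings, a replicate block, fits on 6 libraries and fits without each library were alternatives. The steps were tested on simulated data. The 7 genes and the lists of pathway, family and marker genes were chosen with earlier results of these data known. Described in full are the Hhat peak with the largest late loss, the highest gene-end peak (centre within 1 kb of an annotated end) of each gene, and the called peak with the largest change per gene and tested comparison; from the pathway list, the 4 genes with the largest called change per comparison. Log2 CPM for correlations used a prior count of 2. Some items are not reported here.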

Additional observations from a re-analysis of the deposited data

How the results depend on the processing

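The upstream Hhat peak kept its direction in both tested comparisons under every alternative run. Its inhibitor call was lost with only the 6 libraries compared (-0.97) and ranged from -1.08 to -0.8 when 1 library was left out; in early Fra2 cells the range was -1.49 to -1.09. The count of member peaks called in early Fra2 cells, 36, became 19 with only the 6 libraries compared, 56 with TMM factors from gene-end peaks, 22 with peaks within 10 kb only, and 23 to 47 with 1 library left out. The inhibitor count, 4, became 0 with 6 libraries, 13 with cyclic loess, 10 with gene-end factors, 2 within 10 kb and 0 to 14 with 1 library left out. For early Fra2 against inhibitor, 31 became 51 with 6 libraries, 19 within 10 kb and 23 to 31 with 1 library left out. For late against early control, 6 became 0 with 6 libraries, 2 with DESeq2, 10 with gene-end factors and 1 to 8 with 1 library left out. Over all tested peaks, fits on 6 libraries took the early Fra2 count from 30935 to 15004 and the inhibitor count from 1843 to 11. They took early Fra2 against inhibitor from 29349 to 42040, and late against early control from 6766 to 1133. With 1 library left out, all peaks gave 19720 to 40321 for early Fra2 and 220 to 7565 for the inhibitor. Gene-end factors gave 42408 and 8453. The causes were not tested. Fewer peaks lie within 10 kb by construction, and with gene-end factors the early Fra2 median over all peaks was 0.18 in place of -0.03.

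Replicate numbers did not pair the libraries: of 30 pairs with the same number in different groups 4 correlated above 0.1 in their deviations from the group means (-0.192 to 0.262), and 6 of 15 libraries correlated best with their own number. With the replicate number as a block the 4 counts were 35, 5, 33 and 6. The 27 results on single named peaks were followed through the alternatives. Those other than leaving out a library kept the result in 146 cases and lost a call in 16. Leaving out a library kept the result in 119 cases and lost a call in 43, and none reversed. Some of the 27 had no call to lose, all at the upstream Hhat peak. Its difference between early Fra2 and inhibitor cells was not called, and its values involving late controls were descriptions without a test. Their cases are counted within the 146 and 119, which are therefore not all kept calls. Peaks near 1 CPM rest on few reads in the shallowest library, where 3 reads are 0.42 CPM.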
